A study of Mus musculus with 2 samples.

Results

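Glucocorticoids act through the glucocorticoid receptor, a nuclear receptor that is held in the cytosol by Hsp90 and its co-chaperones, moves to the nucleus when corticosterone binds, and switches on target genes at short DNA elements. Many of these targets are shared by endothelial, stromal, immune and endocrine cells, so their transcripts are widely used as a readout of hormone exposure. In pancreatic islets, glucocorticoids are known for their effects on insulin secretion and for their action on the capillary bed and the resident macrophages. The 7 genes described here were the receptor Nr3c1 and 6 transcripts that glucocorticoids are known to raise, namely Zbtb16, Fkbp5, Tsc22d3, Sgk1, Per1 and Errfi1. They were found by gene symbol among the 27998 genes listed, and they were chosen with their measured values in these libraries known, so each difference between the libraries is given as a description, with no test.

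Single-cell RNA-Seq was performed on islets from 8-week-old C57BL/6N mice that were wild-type (WT) or homozygous for a ghrelin gene deletion (GKO) and were littermates from heterozygous crosses. Both groups had free access to standard chow, and islets from 4 mice were pooled for each genotype, dispersed with Accutase and sorted for viable single cells. There was 1 pool and 1 library for each genotype, so genotype, pool, time of handling and library cannot be told apart, and no p value can be given. The WT library held 158067110 unique molecular identifiers (UMIs, each standing for 1 captured transcript) in 7792 barcodes, and the GKO library held 103511757 in 7289. After barcodes with under 500 genes or over 10% mitochondrial UMIs were set aside, 7100 WT and 6346 GKO barcodes remained. The libraries shared 18 barcode sequences. Ghrl, the deleted gene, was at 276 counts per 1e6 UMIs (CPM) in the WT library and 2.71 CPM in the GKO library.

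Barcodes were placed by what they carried most plainly. A barcode with at least 10% of its UMIs from the leading hormone was put in the β (Ins1 and Ins2), α (Gcg), δ (Sst) or γ (Ppy) class. Of the rest, a barcode with at least 3 UMIs of Plvap, Dcn or C1qa, but not of a second of them, was put in the endothelial, stromal or macrophage class. The β class held 2265 WT and 872 GKO barcodes, the α class 1048 and 1397, the δ class 1414 and 1003, and the γ class 717 and 669. The endothelial class held 582 and 436, the stromal class 263 and 676, and the macrophage class 233 and 484. The 6 endothelial markers together were at 17875 CPM (WT) and 18442 CPM (GKO) in the endothelial class, the 5 stromal markers at 23263 and 23832 CPM in the stromal class, and the 6 macrophage markers at 12195 and 14827 CPM in the macrophage class, and none of these markers was at 0 in its own class. Plvap, Dcn and C1qa set these classes, so their presence was fixed in advance. In the sums they stood at 5786 and 6103, 10636 and 13615, and 4408 and 5067 CPM. The median mitochondrial share was higher in the GKO library in every class, at 2.39% to 4.20% in WT and 2.67% to 4.62% in GKO. Levels below are the UMIs of a gene summed over a class, scaled to CPM by the total UMIs of that class, and every interval is an exact 95% interval that covers counting error only. These totals include hormone transcripts, which made up 61.3% of WT UMIs in β, 28.2% in α, 22.4% in δ and 36.9% in γ barcodes. In the endothelial, stromal and macrophage classes they made up 1.06% to 3.21% in WT. An order of levels over classes is therefore one of shares of all UMIs, and it was not computed without hormone UMIs.

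Glucocorticoid response elements consist of a pair of 6-base motifs, AGAACA and TGTTCT, separated by 3 bases. RefSeq start-site windows of 300 bases (250 before and 50 after a start, GRCm38.p6) were searched on both strands for these letters, to show where the element lies near these genes. Of 32851 windows, 3 held the full element (0.00913%), and 1 of these belonged to Sgk1. It is shown with the element in capitals, at chr10:21993694-21993723 on the plus strand, 189 bases before an internal start of Sgk1. In GENCODE vM21 it lay within the span of 5 Sgk1 transcripts and overlapped no exon, so it is intronic in these.
Sgk1: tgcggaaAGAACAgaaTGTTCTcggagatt
A single 6-base motif, which 19.0% of all windows held, stood in 1 of the 3 windows of Tsc22d3, at chrX:140600690-140600719 on the minus strand, outside the annotated gene and 185 bases before the start; it is in capitals.
Tsc22d3: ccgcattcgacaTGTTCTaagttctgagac
The windows of Fkbp5, Per1 and Errfi1 (1, 2 and 2 windows) held neither the full element nor a single motif. A match is a string of letters and not a measured site, and its absence covers these windows only.

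**Figure D1:**
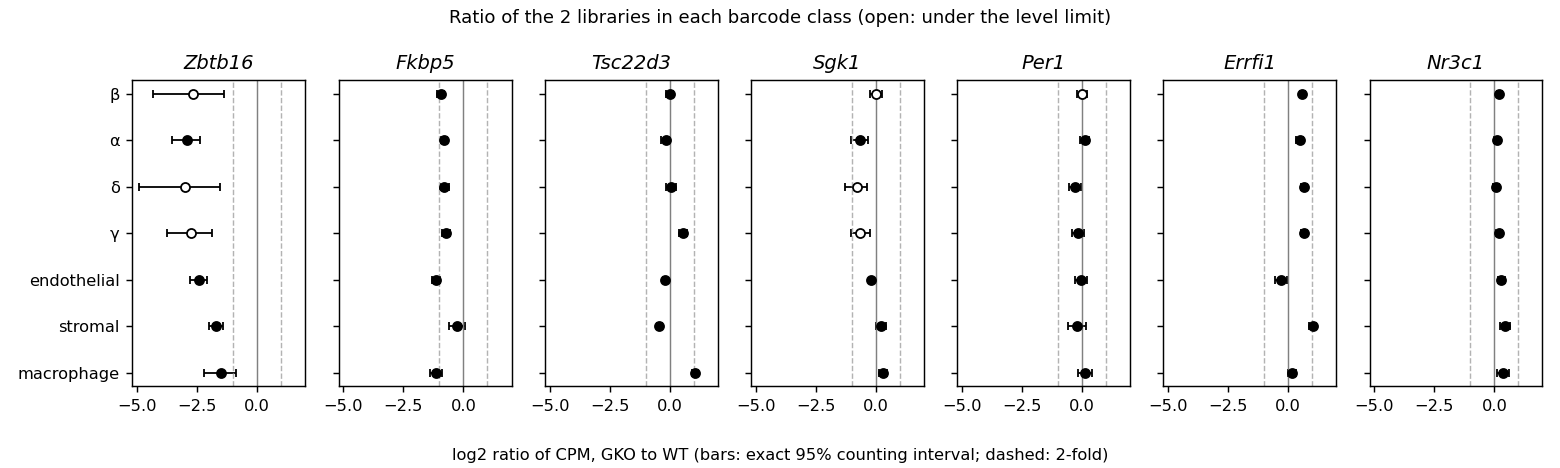
The log2 ratio of CPM in the GKO library to that in the WT library (x axis) for each gene (panels) in each barcode class (y axis), with exact 95% counting intervals as bars and open circles for sums under 10 CPM in both libraries or under 20 UMIs in all. Zbtb16 lies left of 0 in all 7 classes, from −3.01 to −1.53, Fkbp5 lies left of 0 in all 7 classes, from −1.15 to −0.26, and Nr3c1 lies right of 0 in all 7.

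The 7 genes did not move as a group. Zbtb16 and Fkbp5 were lower in the GKO library in all 7 classes, Nr3c1 was higher in all 7, and Errfi1 was higher in 6 of 7. Tsc22d3 and Sgk1 differed in both directions from class to class, and 6 of the 7 intervals of Per1 spanned 0. Of the 49 pairs of gene and class, the interval of the ratio lay below 0 in 21, above 0 in 15 and spanned 0 in 13. The share of all genes with an interval that excluded 0 was not computed, so nothing is read from these counts. A total of 42 pairs reached the level limit for the gene-wide background, which was at least 10 CPM in 1 library and 20 UMIs in both together. The median log2 ratio over the 6 responsive genes took in genes under that limit. It was −0.01 in β, −0.42 in α, −0.54 in δ, −0.40 in γ, −0.25 in endothelial, −0.24 in stromal and 0.14 in macrophage barcodes. The median over all genes past the limit lay between 0.03 and 0.10, which is not a like comparison where genes fell short. Zbtb16 and Sgk1 fell short in β, δ and γ, and Per1 in β. Of those past it in δ, Fkbp5 was at −0.79, Tsc22d3 at 0.06, Per1 at −0.30 and Errfi1 at 0.66. In γ these genes were at −0.74, 0.56, −0.15 and 0.67. Without mixed barcodes, defined below by hormone and marker limits, the median over the 6 genes was −0.14 in α and −0.10 in δ. In γ it turned to 0.067.

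Read against all genes of the same class, few of the 7 passed a 2-fold difference. In β barcodes 4 of the 7 genes reached the limit and none was 2-fold lower or higher, while 0.469% of all genes were lower and 0.243% higher by that measure. In α barcodes 1 of 7 (Zbtb16) was 2-fold lower, against 0.397% of all genes, and none was higher, against 0.115%. None of the 5 genes that reached the limit was past 2-fold in δ barcodes (background 0.204% lower and 0.228% higher) or in γ barcodes (0.25% and 0.323%). In endothelial barcodes Zbtb16 and Fkbp5 were 2-fold lower, against 0.927% of all genes, and none was higher, against 0.587%. In stromal barcodes Zbtb16 was 2-fold lower (background 1.42%) and Errfi1 was 2-fold higher (background 1.85%). In macrophage barcodes Zbtb16 and Fkbp5 were 2-fold lower (background 1.95%) and Tsc22d3 was 2-fold higher (background 1.28%). Zbtb16 reached the limit in α and macrophage barcodes through the WT library only. Since the genes were selected on this contrast, nothing is read from the excess over the background.

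Zbtb16 (ENSMUSG00000066687; GRCm38 chromosome 9, 48654297 to 48836222, minus strand) encodes a zinc finger transcription factor of the BTB family and is among the transcripts that glucocorticoids raise most sharply from a low base. It was highest in the vascular and stromal classes. In endothelial barcodes it was at 126 CPM in WT (630 UMIs) and 23.1 CPM in GKO (83 UMIs), a log2 ratio of −2.44 (interval −2.79 to −2.11), which placed it 12th from the lowest of 8525 genes. In stromal barcodes it was at 97.1 CPM in WT and 29.5 CPM in GKO, a log2 ratio of −1.72 (−2.01 to −1.43). In macrophage barcodes it was at 18.2 CPM in WT (51 UMIs) and 6.30 CPM in GKO (32 UMIs), a log2 ratio of −1.53 (−2.22 to −0.87). The counting intervals of the levels did not overlap between the libraries in any of these classes.

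Among hormone-led barcodes Zbtb16 was highest in the α class. There it was at 12.3 CPM in WT (178 UMIs) and 1.60 CPM in GKO (30 UMIs), a log2 ratio of −2.94 (−3.55 to −2.37). This was the lowest of the 7804 genes past the level limit, which Zbtb16 reached through the WT library only. Since it was also chosen on this contrast, nothing is read from the rank. The γ class had 5.27 CPM in WT and 0.77 CPM in GKO, the δ class 2.93 and 0.36 CPM, and the β class 0.97 and 0.15 CPM, all under the level limit. In those 3 classes the GKO values rest on 12, 4 and 5 UMIs. The log2 ratios there were −2.77, −3.01 and −2.66, and each interval lay below 0. The levels in both libraries fell in nearly the same order over the classes. WT went from endothelial through stromal, macrophage, α, γ and δ to β, and GKO had stromal and endothelial barcodes in the opposite order with intervals that overlapped. The macrophage and α levels overlapped in WT, and the α, γ, δ and β levels overlapped from neighbour to neighbour in GKO.

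**Figure D2:**
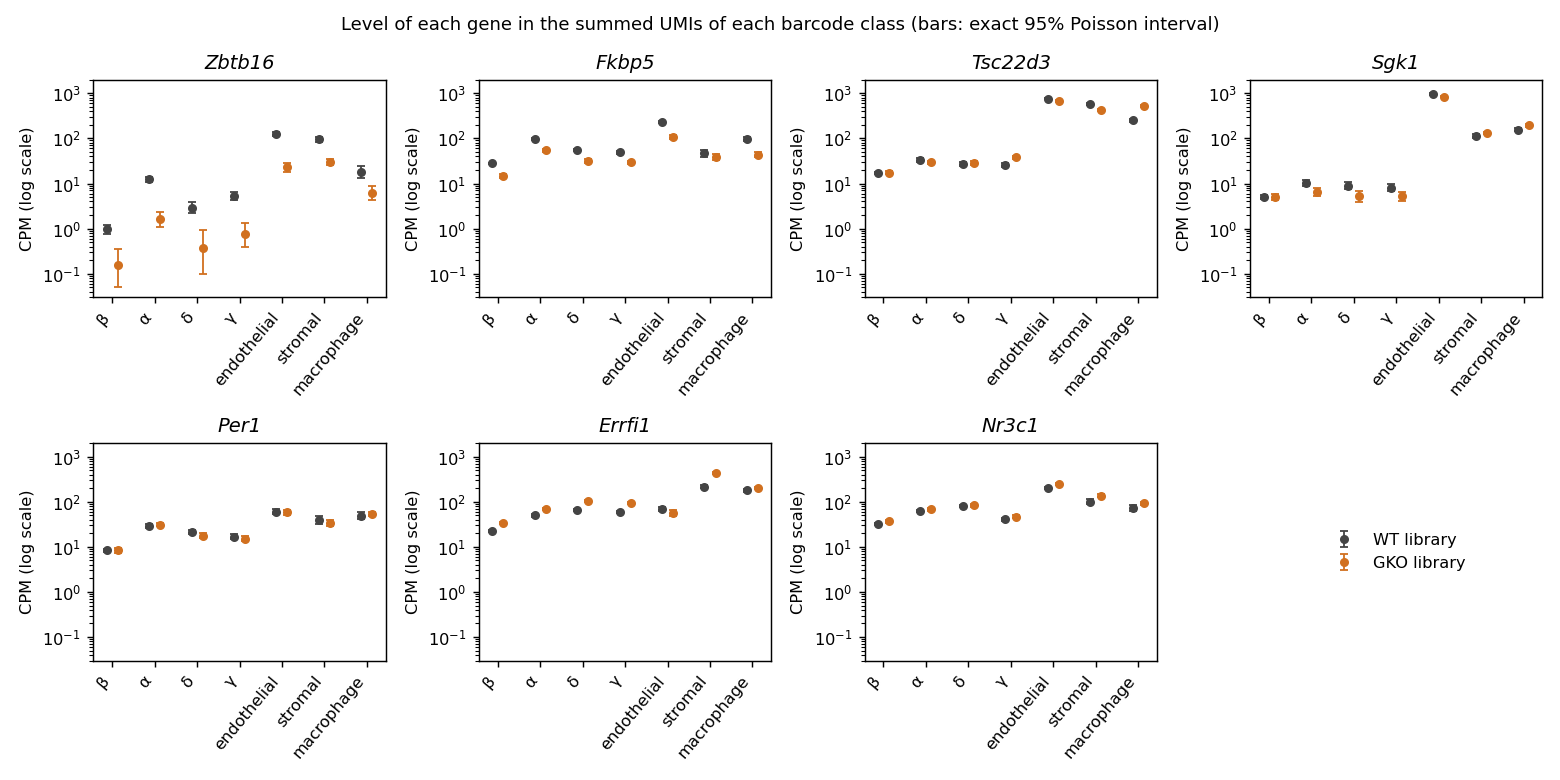
The level of each gene in CPM (y axis, log scale, the same range in each panel) in the 7 barcode classes (x axis) of the WT library (grey) and the GKO library (orange), with exact 95% Poisson intervals as bars. The points for Zbtb16 are apart in every class, from 126 against 23.1 CPM in endothelial barcodes to 0.97 against 0.15 CPM in β barcodes, and those for Per1 lie close together throughout.

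A class sum can be carried by few barcodes, so the share of barcodes with a UMI was counted too. Zbtb16 was found in 287 of 582 WT endothelial barcodes, or 49.3% (45.2% to 53.5%), and in 53 of 436 GKO endothelial barcodes, or 12.2% (9.24% to 15.6%). With each barcode thinned to 5000 UMIs and shallower ones left out, these shares were 41.1% (36.4% to 45.8%) of 436 WT barcodes and 10.0% (6.94% to 13.8%) of 320 GKO barcodes. In stromal barcodes the thinned shares were 35.4% and 11.99%, and in macrophage barcodes 10.3% and 3.92%. In α barcodes they were 6.94% (5.47% to 8.66%) and 0.72% (0.35% to 1.33%). In β barcodes, which had the lowest Zbtb16 level and a median depth of 37124 UMIs in WT and 35811 in GKO, the thinned share was 0.35% in WT and 0 of 871 in GKO. The α share in WT was thus above the β share at equal depth in all UMIs. Hormone transcripts made up 28.2% of UMIs in WT α and 61.3% in WT β barcodes, which left β barcodes fewer UMIs for other genes. The α share in GKO had an interval that overlapped the WT β share. No barcode of any of the 7 classes held more than 11 Zbtb16 UMIs in WT or 5 in GKO.

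**Figure D3:**
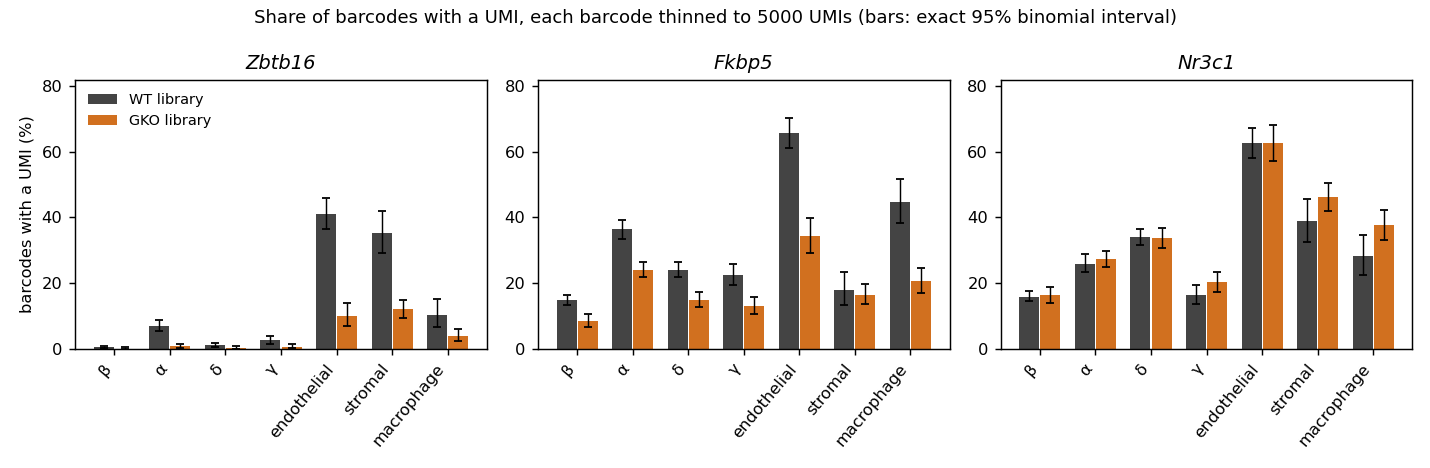
The share of barcodes with at least 1 UMI of Zbtb16, Fkbp5 or Nr3c1 (y axis, percent) in each barcode class (x axis) after each barcode was thinned to 5000 UMIs, in WT (grey) and GKO (orange), with exact 95% binomial intervals. Zbtb16 was found in 41.1% of WT and 10.0% of GKO endothelial barcodes and Fkbp5 in 65.8% and 34.4%, while the intervals for Nr3c1 overlap in every class.

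Hormone-led barcodes can carry transcripts of other cells, from free RNA or from a second cell in the same droplet. Plvap in α barcodes was at 25.9 CPM in WT and 13.5 CPM in GKO, so vascular RNA in this class moved in the same direction as Zbtb16. The summed endothelial markers were higher in WT in all 4 hormone classes (46.7 against 23.1 CPM in β, 75.0 against 51.9 in α, 90.1 against 47.4 in δ and 48.9 against 19.9 in γ), and the summed stromal markers were higher in GKO in all 4 (for example 61.3 against 105 CPM in α). For every 100 Plvap UMIs, α barcodes held 47.5 Zbtb16 UMIs in WT and 11.9 in GKO, where endothelial barcodes held 2.17 and 0.38. The values for γ barcodes were 25.9 and 9.84, for δ barcodes 8.29 and 2.30, and for β barcodes 5.42 and 1.87. Stromal barcodes also held Zbtb16, and Dcn was at 31.1 CPM in WT and 57.3 CPM in GKO α barcodes.

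The comparison was repeated without mixed barcodes, that is, without hormone-led barcodes that had a second hormone at 10% of UMIs or 3 UMIs of Plvap, Dcn or C1qa, and without other barcodes that had 2% of UMIs from hormones. The pericyte marker Rgs5 was not screened. In β the filter left 1331 of 2265 WT and 487 of 872 GKO barcodes, and C1qa had stood at 74.2 and 92.6 CPM before it. Whether the barcodes removed held a second cell was not tested. In the 907 WT and 1238 GKO α barcodes that remained, Plvap was at 2.88 and 2.25 CPM. Zbtb16 was at 12.5 CPM (148 UMIs) and 1.80 CPM (28 UMIs) in these barcodes, a log2 ratio of −2.80 (−3.44 to −2.21). It was found in 12.9% (10.8% to 15.3%) of the WT and 2.18% (1.44% to 3.16%) of the GKO barcodes. Dcn was at 2.63 and 5.53 CPM in the same barcodes. Since barcodes with 3 UMIs of Plvap, Dcn or C1qa were removed, low levels of these genes were fixed in advance. The part of RNA from other cells in the α difference was not tested. In γ barcodes without mixed ones Zbtb16 had 62 UMIs in WT and 9 in GKO, in δ barcodes 26 and 4, and in β barcodes 25 and 0.

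**Figure D4:**
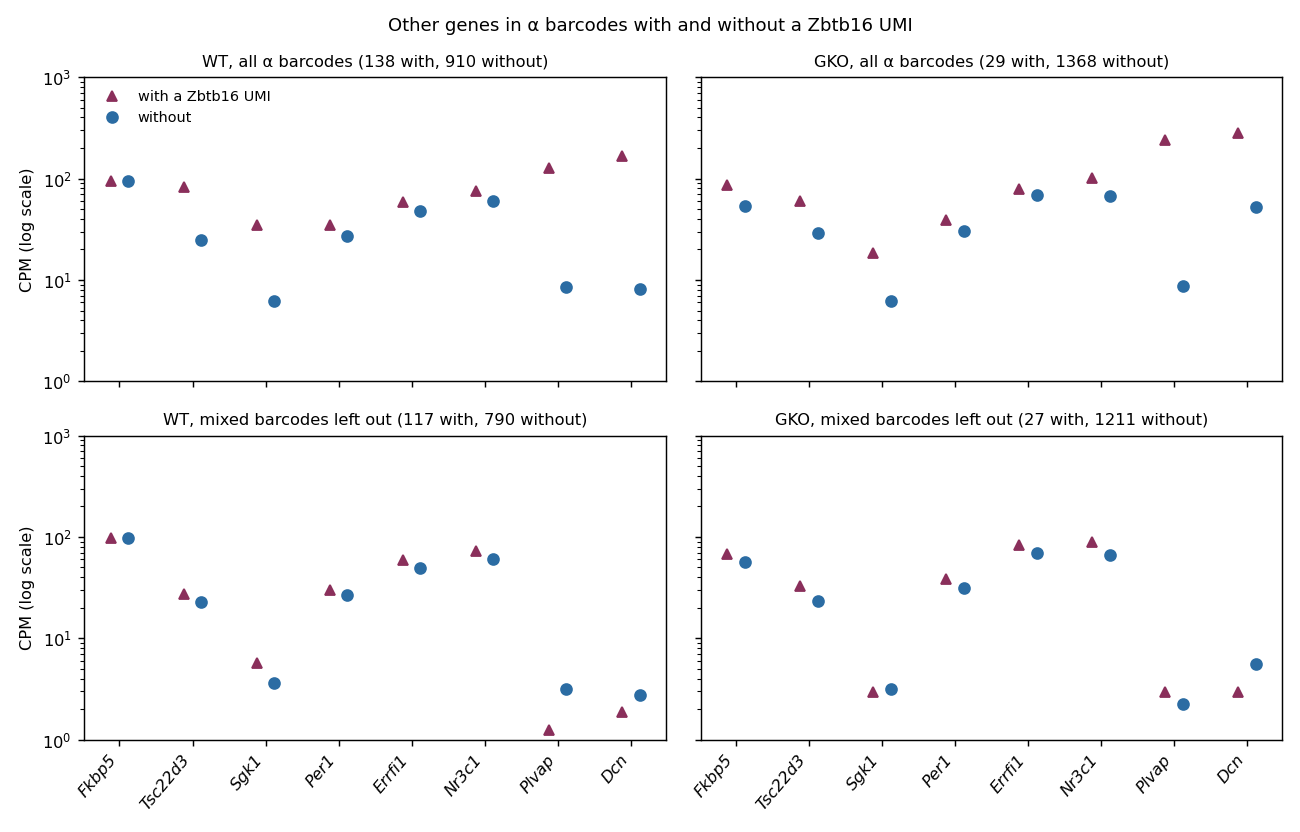
The level in CPM (y axis, log scale) of 6 of the genes and of the vascular and stromal markers Plvap and Dcn (x axis) in α barcodes with a Zbtb16 UMI (triangles) and without (circles), in WT (left) and GKO (right), for all α barcodes (top) and with mixed barcodes left out (bottom). Tsc22d3 and Sgk1 stand apart in the top panels together with Plvap and Dcn, and lie close in the bottom panels.

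Within the α class of the WT library, the 138 barcodes with a Zbtb16 UMI and the 910 without had similar median depths of 12292 and 12508 UMIs. Tsc22d3 was at 82.1 CPM in the former and 24.7 CPM in the latter, and Sgk1 was at 34.7 and 6.21 CPM. Plvap (128 against 8.55 CPM) and Dcn (167 against 8.07 CPM) differed in the same direction and by more. Without mixed barcodes, Tsc22d3 was at 27.1 CPM in 117 barcodes with Zbtb16 and 22.7 CPM in 790 without, and the interval of the log2 ratio reached below 0. Sgk1 rested there on 9 and 37 UMIs (5.68 and 3.62 CPM). Fkbp5 was at 94.5 against 95.4 CPM in all WT α barcodes and at 98.4 against 97.8 CPM without mixed ones. In the GKO library, with 29 α barcodes that had a Zbtb16 UMI, Fkbp5 was at 86.1 CPM in these and 53.9 CPM in the others, and without mixed barcodes at 67.9 and 56.2 CPM with an interval of the log2 ratio from −0.39 to 0.87. The other classes were not alike in this. In WT barcodes without mixed ones, Fkbp5 was at 46.6 CPM in 22 β barcodes with a Zbtb16 UMI and 27.6 CPM in those without (interval of the log2 ratio 0.20 to 1.26), at 65.5 and 45.3 CPM in γ barcodes (0.15 to 0.90), and at 160 and 92.3 CPM in macrophage barcodes (0.32 to 1.24). In the same β barcodes Tsc22d3 was at 45.2 and 14.5 CPM and Sgk1 at 13.1 and 2.28 CPM, the last resting on 9 and 102 UMIs. Errfi1 (52.4 and 24.3 CPM) and the receptor Nr3c1 (62.6 and 34.4 CPM) were also higher there, with intervals above 0, and the Per1 interval spanned 0. Dcn was at 4.37 and 1.21 CPM (3 and 54 UMIs) and Plvap at 1.46 and 2.08 CPM (1 and 93 UMIs), both held low by the filter. The pericyte marker Rgs5 was not screened, and its level was not computed without mixed barcodes. In all WT barcodes with and without a Zbtb16 UMI, Rgs5 was at 89.9 and 4.31 CPM in β. It was at 41.2 and 0.85 CPM in macrophage and at 0.63 and 1.53 CPM in γ barcodes. The part of RNA from other cells in the β, γ and macrophage values was not tested. In δ and stromal barcodes the intervals for Fkbp5 spanned 0.

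Fkbp5 (ENSMUSG00000024222; chromosome 17, 28399094 to 28517527, minus strand) encodes FKBP51, an Hsp90 co-chaperone that lowers the affinity of the receptor for its hormone and is itself induced by it. The largest differences were in macrophage and endothelial barcodes. Endothelial barcodes had 231 CPM in WT and 105 CPM in GKO, a log2 ratio of −1.13 (−1.30 to −0.96). Macrophage barcodes had 96.7 and 43.7 CPM, a log2 ratio of −1.15 (−1.41 to −0.89). All 4 hormone classes were lower in GKO, with 28.0 and 14.5 CPM in β (log2 ratio −0.95), 95.3 and 54.6 CPM in α (−0.80), 55.1 and 31.9 CPM in δ (−0.79), and 48.8 and 29.2 CPM in γ (−0.74), and none of the intervals of the level overlapped between the libraries. The stromal class was the exception, at 46.3 and 38.7 CPM with an interval of the log2 ratio from −0.59 to 0.08.

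Fkbp5 reached the level limit in every class and could be ranked there. Of the 4603 genes past the limit in all 7 classes, 208 (4.52%) were lower in GKO in all 7, and Fkbp5 was the 13th lowest by its median log2 ratio of −0.80. The 10 genes with the lowest medians were Reg2, Try4, Rnase1, Prss2, Cpb1, Cela3b, Rgcc, Clps, Reg1 and Ctrl. Except for Rgcc, which takes part in the cell cycle, and Reg2 and Reg1, these encode digestive enzymes or their helpers made by acinar cells, and their log2 ratios spanned a wide range over the classes (Reg1 from −2.65 to 2.31). The summed acinar markers were at 1260 CPM in WT and 298 CPM in GKO endothelial barcodes, and at 543 and 1339 CPM in stromal barcodes. The summed acinar markers thus differed between the libraries in opposite directions in the endothelial and stromal classes. The part of acinar RNA in the ratios of Fkbp5 and the other members was not tested.

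In WT the levels went from endothelial through macrophage, α, δ, γ and stromal to β, and in GKO from endothelial through α, macrophage, stromal, δ and γ to β. In WT the macrophage level overlapped with α, δ with γ, and γ with stromal. In GKO the macrophage, stromal, δ and γ levels overlapped from neighbour to neighbour. The share of barcodes with a Fkbp5 UMI followed the level. In endothelial barcodes it was 77.5% in WT and 46.3% in GKO, and at 5000 UMIs a barcode it was 65.8% (61.2% to 70.3%) and 34.4% (29.2% to 39.9%). At the same depth it was 44.8% and 20.7% in macrophage barcodes, 36.4% and 24.1% in α barcodes, and 14.7% and 8.38% in β barcodes. At 2000 UMIs a barcode the β shares, 5.21% (4.33% to 6.21%) and 4.36% (3.10% to 5.93%), overlapped. The log2 ratio of the β level was −0.26 in that thinning, which was a single random draw. With equal weight for each β barcode at full depth, that ratio was −0.97. In stromal barcodes the thinned shares, 17.9% (13.2% to 23.5%) and 16.5% (13.5% to 19.8%), overlapped. Fkbp5 was thus spread over many barcodes. In WT endothelial barcodes, those with a Zbtb16 UMI had 250 CPM of Fkbp5 and those without had 203 CPM, and in GKO 138 and 98.6 CPM. Their median depths also differed, at 8699 and 5769 UMIs in WT. Fkbp5 overlaps an antisense and an intronic transcript in the GENCODE vM21 annotation, and whether these affect its counts was not tested.

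**Figure D5:**
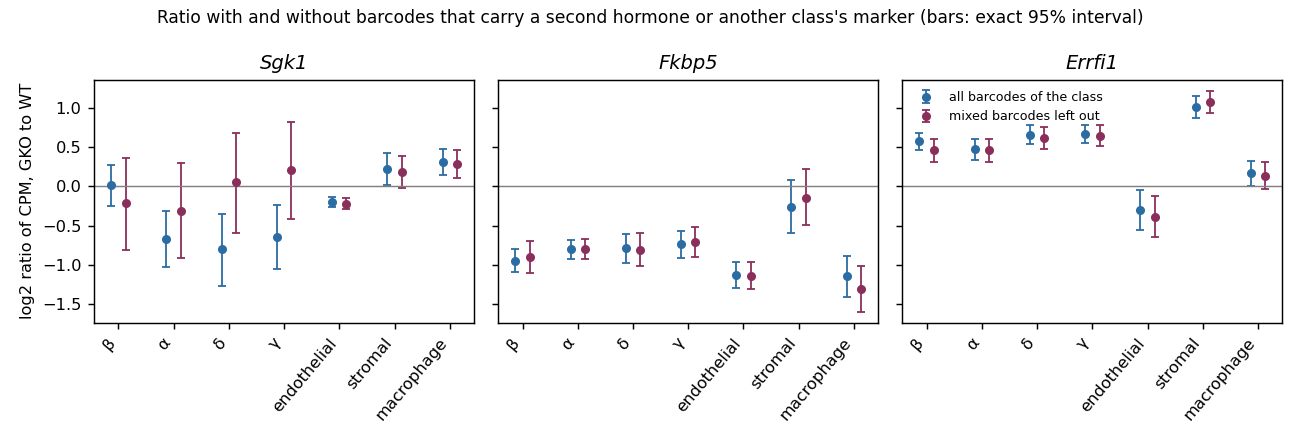
The log2 ratio of CPM, GKO to WT (y axis), of Sgk1, Fkbp5 and Errfi1 in each barcode class (x axis) with all barcodes of the class (blue) and with mixed barcodes left out (purple), with exact 95% counting intervals. Sgk1 in α, δ and γ barcodes lies below 0 with all barcodes and has intervals that span 0 without mixed ones. The points for Fkbp5 stay below 0 in all 7 classes, with stromal intervals that span 0 both with and without mixed barcodes. Errfi1 in macrophage barcodes has an interval that spans 0 without mixed ones.

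Sgk1 (ENSMUSG00000019970; chromosome 10, 21882184 to 21999903, plus strand) encodes the serum- and glucocorticoid-regulated kinase, which acts on ion channels and transporters. It marked endothelial barcodes, at 967 CPM in WT and 845 CPM in GKO, a log2 ratio of −0.19 (−0.26 to −0.13). In macrophage barcodes it was at 157 and 195 CPM, a log2 ratio of 0.31 (0.15 to 0.48), and in stromal barcodes at 113 and 131 CPM, a log2 ratio of 0.22 (0.02 to 0.42), which was 0.18 (−0.02 to 0.39) without mixed barcodes and −0.046 with barcodes thinned to 2000 UMIs. Hormone-led barcodes had little Sgk1, between 5.03 and 10.3 CPM in WT and between 5.09 and 6.51 CPM in GKO. Endothelial barcodes of either library therefore held far more Sgk1 than any other class.

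The lower Sgk1 of the GKO library in 3 hormone classes had intervals that spanned 0 without mixed barcodes. With all barcodes the log2 ratio was −0.67 in α, −0.80 in δ and −0.64 in γ, and 0.02 in β. Of the 59 WT α barcodes with a Sgk1 UMI, the 6 richest held at least as many Sgk1 UMIs as all the others together. Without mixed barcodes Sgk1 was at 3.90 and 3.15 CPM in α, 4.23 and 4.39 CPM in δ, and 3.26 and 3.75 CPM in γ. The log2 ratios were then −0.31 (−0.92 to 0.31), 0.05 (−0.59 to 0.68) and 0.20 (−0.42 to 0.83). At this depth no difference of Sgk1 between the libraries was detectable in these 3 classes. The α interval, from 46 and 49 UMIs, still held the −0.67 of all barcodes.

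Tsc22d3 (ENSMUSG00000031431; chromosome X, 140539528 to 140600659, minus strand) encodes GILZ, a leucine zipper protein through which glucocorticoids restrain inflammatory signalling. It was higher in GKO macrophage barcodes, at 251 CPM in WT (704 UMIs) and 518 CPM in GKO (2630 UMIs), a log2 ratio of 1.04 (0.92 to 1.16). The share of macrophage barcodes with a UMI, thinned to 2000 UMIs, was 35.2% (29.1% to 41.7%) in WT and 58.8% (54.3% to 63.2%) in GKO. In stromal barcodes it was lower in GKO, at 578 and 428 CPM, a log2 ratio of −0.43 (−0.53 to −0.34), and in endothelial barcodes at 766 and 671 CPM, a log2 ratio of −0.19 (−0.26 to −0.12). In macrophage barcodes Tsc22d3 and Fkbp5 thus lay on opposite sides of 0.

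In the hormone classes Tsc22d3 was low, at 17.3 to 33.0 CPM in WT. β barcodes had 17.3 CPM in both libraries, and the α and δ intervals spanned 0. In γ barcodes it was at 25.9 and 38.2 CPM, a log2 ratio of 0.56 (0.38 to 0.74), and without mixed barcodes at 22.2 and 32.6 CPM. The γ value placed it 70th from the highest of 6810 genes.

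Errfi1 (ENSMUSG00000028967; chromosome 4, 150853919 to 150868892, plus strand) encodes a feedback inhibitor of the EGF receptor family, and growth factors raise it as glucocorticoids do. It was higher in GKO in every class but the endothelial. Stromal barcodes had 218 CPM in WT and 440 CPM in GKO, a log2 ratio of 1.01 (0.88 to 1.15). The hormone classes were all higher, with 22.6 and 33.7 CPM in β (log2 ratio 0.58), 49.8 and 69.3 CPM in α (0.48), 65.1 and 103 CPM in δ (0.66) and 59.1 and 93.7 CPM in γ (0.67). Macrophage barcodes had 180 and 202 CPM, a log2 ratio of 0.17 (0.01 to 0.32), which had an interval that spanned 0 without mixed barcodes (−0.03 to 0.31) and turned to −0.030 with barcodes thinned to 2000 UMIs. Endothelial barcodes had 69.96 and 56.9 CPM, a log2 ratio of −0.30 (−0.55 to −0.05). Without mixed barcodes the log2 ratio in the hormone classes was between 0.46 and 0.65. An antisense transcript is annotated over Errfi1, and whether it affects the Errfi1 counts was not tested.

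The stromal class differed between the libraries in make-up. The summed pericyte markers (Rgs5, Pdgfrb, Acta2 and Myh11) were at 1447 CPM in WT and 2811 CPM in GKO stromal barcodes. With stromal barcodes limited to those under 3 Rgs5 UMIs, a choice made after seeing the data, the log2 ratio of Errfi1 was 1.16 and that of Zbtb16 was −1.71. Among barcodes outside the 7 classes with at least 3 Rgs5 UMIs (183 WT and 301 GKO), also added after seeing the data, Errfi1 was at 267 and 295 CPM, with an interval of the log2 ratio from −0.08 to 0.37. Zbtb16 in these barcodes was at 68.3 and 15.3 CPM, a log2 ratio of −2.16 (−2.91 to −1.45), and Fkbp5 at 30.5 and 10.6 CPM, a log2 ratio of −1.52 (−2.50 to −0.59). Tsc22d3 was at 241 and 152 CPM there.

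Per1 (ENSMUSG00000020893; chromosome 11, 69095217 to 69109960, plus strand) encodes a period protein of the circadian clock and is a rapid target of the receptor. It showed the least difference of the 6 responsive genes. Endothelial barcodes had 60.6 CPM in WT and 58.6 CPM in GKO, a log2 ratio of −0.05 (−0.31 to 0.21). The log2 ratio ranged over the classes from −0.30 to 0.12, and 6 of 7 intervals spanned 0. The levels went from endothelial through macrophage, stromal, α, δ and γ to β in both libraries. The exception among the ratios was the δ class, at 21.8 and 17.8 CPM, a log2 ratio of −0.30 (−0.56 to −0.04), whose interval spanned 0 without mixed barcodes (−0.56 to 0.03).

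Nr3c1 (ENSMUSG00000024431) encodes the receptor itself. It was found in every class and was highest in endothelial barcodes, at 201 CPM in WT and 246 CPM in GKO, a log2 ratio of 0.29 (0.16 to 0.42). Stromal barcodes had 99.1 and 135 CPM (log2 ratio 0.45, interval 0.24 to 0.66) and macrophage barcodes 72.5 and 92.1 CPM (0.35, interval 0.11 to 0.59). The log2 ratio was 0.20 in β and 0.18 in γ barcodes, and in α (0.12) and δ (0.05) barcodes the intervals spanned 0. In WT the levels went from endothelial through stromal, δ, macrophage, α and γ to β, and in GKO macrophage and δ barcodes changed places with overlapping intervals. In the hormone classes δ barcodes had the most as a share of all UMIs, at 80.6 and 83.3 CPM, and β barcodes the least, at 31.9 and 36.7 CPM. Hormone transcripts, at 61.3% of WT β, 36.9% of WT γ and 22.4% of WT δ UMIs, are in these totals. The order without them was not computed. Of the 4603 genes past the limit in all classes, 626 (13.6%) were higher in GKO in all 7, so the shared direction of Nr3c1 was not rare. The δ value was the least firm, and it was below 0 when hormone-led barcodes had to reach 25% of UMIs (−0.14) or were thinned to 2000 UMIs (−0.13).

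The genes whose levels most resembled those of Zbtb16 over the 14 sums of class and library, among 11583 genes with 10 CPM in at least 1 sum, were Pprc1, Bach2, Klhl21, Id3 and Rrbp1 (Pearson r from 0.90 to 0.92). For Fkbp5 they were Lypla2, Zc3h10, Ctnnbl1, H2afx and Pnpla2 (0.88 to 0.91), and for Tsc22d3 they were Tgfbr2, Ifi203, Fosl2, Phf11d and Cmtm3 (0.99). The 14 sums share 2 libraries and differ in depth, so these r values are a description. Tsc22d3 thus had far closer neighbours than the other 2 genes.

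A list of 32 further genes that glucocorticoids are known to raise, of which 31 were matched, was compared too. Between 10 (δ) and 23 (stromal) of them were past the level limit in a class, and these did not differ as a body. The median log2 ratio of those past the limit was between −0.06 and 0.13 over the classes, close to the median of all genes. Genes under the limit are not in this median. In β barcodes 2 of 11 genes past the limit were 2-fold lower, against 0.469% of all genes. They were the metallothioneins Mt1 and Mt2, which bind zinc and are also raised by metals. Mt1 was at 272 CPM in WT and 120 CPM in GKO β barcodes. In macrophage barcodes Mt1 (3227 and 1296 CPM) and Mt2 (212 and 78.9 CPM) were again 2-fold lower among 20 genes, against 1.95% of all genes. Mt1 was lower in GKO in all 7 classes, as were 4.52% of the 4603 genes past the limit in all 7. In macrophage barcodes 2 of the 20 were 2-fold higher, against 1.28% of all genes. They were Cd163, the haemoglobin scavenger receptor, at 45.7 and 106 CPM, and Anxa1, an anti-inflammatory annexin, at 15.7 and 31.5 CPM.

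In endothelial barcodes 2 of 18 genes of that list were 2-fold lower, against 0.927% of all genes. Angptl4, an inhibitor of lipoprotein lipase, was at 11.4 CPM (57 UMIs) in WT and 2.79 CPM (10 UMIs) in GKO. It reached the level limit through the WT library only. Map3k6, a stress kinase, was at 30.9 and 15.1 CPM. In stromal barcodes none of 23 was 2-fold lower, against 1.42% of all genes, and 1 was 2-fold higher, against 1.85%. It was Ednrb, an endothelin receptor, at 6.45 and 13.0 CPM, which reached the level limit through the GKO library only. No gene of the list was past 2-fold among 13 in α, 10 in δ and 12 in γ barcodes. Of all genes in these classes, 0.397%, 0.204% and 0.25% were 2-fold lower and 0.115%, 0.228% and 0.323% higher, so the absence is not a result about the list. Hif3a and Fam107a, named after their values were seen, stayed under the level limit in all 7 classes and were lower in GKO, Hif3a in 7 of 7 classes (97 UMIs in WT and 18 in GKO in all) and Fam107a in 6 of 7 (608 and 111 UMIs). Cebpb, Ddit4, Tgm2 and Anxa1 were higher in GKO in all 7. Of the 4603 genes past the limit in all 7 classes, 13.6% were higher in all 7 and 4.52% were lower in all 7. Tgm2 and Anxa1 reached the limit in 3 classes each, and the interval of Tgm2 lay above 0 in 2. In endothelial barcodes Dusp1 was at 1116 and 1120 CPM and Klf9 at 352 and 322 CPM. These 6 genes were also named after their values were seen.

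Of the genes that set receptor activity, none past the level limit showed a 2-fold difference in any class. Of all genes, 0.204% to 1.95% were 2-fold lower and 0.115% to 1.85% higher over the classes, so for so short a list the count says little. The list of 14 held the mineralocorticoid receptor Nr3c2, the corticosterone-regenerating enzyme Hsd11b1 and the Hsp90 machinery, and 9 to 11 of them were past the limit in each class, with a median log2 ratio from −0.11 to 0.07. Fkbp4, the co-chaperone that competes with FKBP51 was at 132 CPM in WT and 115 CPM in GKO endothelial barcodes and at 131 and 155 CPM in α barcodes. Hsd11b1 was past the limit only in stromal barcodes, at 403 and 611 CPM, a log2 ratio of 0.60 (0.50 to 0.70). Both genes were named after their values were seen.

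Of the clock genes other than Per1, 8 of 9 past the limit were below 0 in endothelial barcodes, where 42.5% of all genes were, with a median log2 ratio of −0.62. In stromal barcodes 5 of 7 were below 0 (39.5% of all genes) with a median of −0.55, and in macrophage barcodes 6 of 7 (46.7% of all genes) with a median of −0.32. In the hormone classes the median lay between −0.10 and 0.22. In endothelial barcodes Nr1d1, a clock repressor, was at 54.6 and 24.3 CPM and Ciart at 17.1 and 7.81 CPM, both 2-fold lower. In macrophage barcodes Per3 was at 21.1 and 9.64 CPM. Ciart and Per3 reached the level limit in these classes through the WT library only. Nr1d1 and Nr1d2 were lower in GKO in all 7 classes and the transcriptional activator Arntl was higher in all 7, the last 2 genes being named after their values were seen. They reached the level limit in 3 (Nr1d1), 7 (Nr1d2) and 2 (Arntl) classes. The interval lay below 0 in 4 classes for Nr1d1 and 2 for Nr1d2, and above 0 in 2 for Arntl. Of the 4603 genes past the limit in all 7 classes, 4.52% were lower in all 7 and 13.6% were higher in all 7. The time of day of islet collection was not given in the sources used here, and it cannot be told apart from genotype.

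Transcripts that rise with dissociation were compared in the same sums. None of 9 immediate early genes (Fos, Jun and Egr1 among them) and none of 5 heat shock genes was past 2-fold in any class. Of all genes, 0.204% to 1.95% were 2-fold lower and 0.115% to 1.85% higher, so for lists this short the count says little. Immediate early genes below 0 were 0 of 9 in α, 8 of 9 in δ and in stromal, 5 of the 8 past the level limit in β, and 3 to 7 of 9 in the other classes. Heat shock genes below 0 were 5 of 5 in δ and in stromal, 4 in β and 2 in each other class. Of all genes, 23.6% were below 0 in β, 37.1% in α, 40.5% in δ and 35.8% in γ barcodes. The shares were 42.5% in endothelial, 39.5% in stromal and 46.7% in macrophage barcodes. The median log2 ratio of the immediate early genes lay between −0.20 (δ) and 0.27 (α), and that of the heat shock genes between −0.26 (δ) and 0.09 (endothelial).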

How the data were processed

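The deposited values were raw UMI counts for each gene and barcode in 1 filtered matrix for each genotype, which the authors made with Cell Ranger (version 5.0.1 per the file headers) on mm10. The authors' own later steps removed ambient RNA and doublets, but the deposited matrices hold neither step. No doublet caller was run here, and free RNA was not removed. Barcodes needed 500 genes and at most 10% mitochondrial UMIs. Classes were set at 10% of UMIs for the leading hormone or 3 UMIs of exactly 1 of Plvap, Dcn and C1qa. Counts were summed over each class and library and divided by the class total (CPM). Shares of barcodes carry exact Clopper-Pearson intervals, levels carry exact Poisson intervals, and log2 ratios carry intervals from the conditional binomial distribution of the counts. All are 95% intervals and cover counting error only, not the spread between mice. Since each genotype was 1 library, no test was made and no adjusted value exists.

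The members and the gene lists were chosen with earlier results of these data known. Named genes were the 7 members, genes of a list past 2-fold with 10 CPM in 1 library and 20 UMIs in both together (up to 3 in each direction in a class), the 10 genes with the lowest median ratio over 7 classes, and the 5 genes most like Zbtb16, Fkbp5 and Tsc22d3 by Pearson r of log2(CPM + 1). Promoter windows came from RefSeq (GRCm38.p6), where Zbtb16 and Nr3c1 had no entry, and gene positions came from GENCODE vM21. Python 3.11.15, numpy 2.4.6, scipy 1.17.1 and pandas 2.3.3 were used, with edgeR 4.0.16 for TMM factors only. The scripts were tested on simulated data. Alternatives changed the barcode filters, class limits, mixed barcodes, totals, weighting, depth and scaling.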

Additional observations from a re-analysis of the deposited data

Results flagged for a closer look

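The log2 ratio of Tsc22d3 differed by 1.48 between macrophage barcodes, where it was highest, and stromal barcodes, where it was lowest. The ratio of Sgk1 differed by 1.11 between macrophage and δ barcodes, and that of Errfi1 by 1.31 between stromal and endothelial barcodes. They stand out because the counting intervals lay on opposite sides of 0. The Sgk1 value in δ barcodes (−0.80) was under the level limit, and it was 0.052 without mixed barcodes, 0.010 with barcodes thinned to 2000 UMIs and −0.014 with the leading hormone at 25% of UMIs. With 1 library for each genotype, these differences were not tested.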

How the results depend on the processing

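Zbtb16 was lower in GKO in 74 of 74 alternatives over the 7 classes (log2 ratio −3.18 to −1.50) and Fkbp5 in 78 of 78 (−1.36 to −0.08). Alternatives with no finite ratio of Zbtb16 are not in the 74. The settings for marker UMIs could not change the hormone classes, where they repeat the main value. With mixed barcodes left out, Sgk1 turned to 0.052 in δ and 0.20 in γ barcodes, and the median of the 6 responsive genes was −0.14 in α, −0.10 in δ and 0.067 in γ barcodes. With the leading hormone at 25% of UMIs, Sgk1 turned to 0.0095 in α barcodes, the median was −0.0019 in α and −0.14 in δ barcodes, and the number of genes 2-fold lower was 0 in α barcodes, where Zbtb16 came under the level limit with a log2 ratio of −2.82, and 1 in macrophage barcodes. With barcodes thinned to 2000 UMIs, the median was −0.32 in β barcodes, Sgk1 turned to 0.010 in δ and −0.046 in stromal barcodes, Errfi1 turned to −0.030 in macrophage barcodes, and 1 gene was 2-fold lower in endothelial and 1 in macrophage barcodes. With a total without hormone genes, or TMM scaling, 1 gene (Fkbp5) was 2-fold lower in β barcodes. The number 2-fold higher in stromal barcodes was 0 with the leading hormone at 25%, 1 marker UMI, a total without ribosomal protein and mitochondrial genes, TMM scaling, or equal weight for each barcode, with Errfi1 between 0.96 and 0.99. In macrophage barcodes the number 2-fold higher was 0 with 10 marker UMIs, mixed barcodes left out or equal weight, and the number 2-fold lower was 1 with 1 marker UMI. The cause of these shifts was not tested. The thinned log2 ratios came from a single random draw of UMIs and carry no interval. With equal weight for each barcode at full depth, the median in β barcodes was −0.05 and Fkbp5 there was at −0.97. With limits of 50 CPM and 100 UMIs, the background 2-fold lower was 0.315% in β, 0.350% in α, 0.0737% in δ, 0.0583% in γ, 0.782% in endothelial, 0.886% in stromal and 0.881% in macrophage barcodes, and that 2-fold higher was 0.0787%, 0.131%, 0.258%, 0.117%, 0.447%, 1.35% and 1.40%. No paired analysis was possible because each genotype had 1 library. Depth limits Zbtb16 most in β, δ and γ barcodes, where GKO sums held 12 UMIs or fewer.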
